A study of Mus musculus with 6 samples.

Results

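The histone genes that male germ cells use in place of, or beside, the common histones were followed through the adult mouse testis, together with Brdt, which encodes a reader of acetylated histones. The set holds 10 listed genes: the testis variants Hist1h1t, Hist1h2aa, Hist1h2ba, H1fnt and Hils1, the replacement histones H1f0, H3f3a, H3f3b and H2afz, and Brdt. Of these, 9 were among the 25771 measured genes. Hils1 was not analysed here. The members were given as a list of names, and the rule that lists them uses no measured value. Adult C57BL6 testes, some NONO and some NONO deltaER, were digested with enzymes, and single-cell RNA libraries were made from the cells with the 10x Genomics 3′ chemistry, which counts captured transcripts by unique molecular identifiers (UMI). There were 6 libraries, TA, TB and TC of NONO and TD, TE and TF of NONO deltaER, and the labels name no treatment. NONO is a nuclear protein that binds RNA and DNA, and the sources used here do not give what the deltaER change does to it. In the cell table the authors call the groups WT and KI, which were read as NONO and NONO deltaER. If the names mean the reverse, the sign of each genotype difference below is the reverse too.

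Nucleosomes wind DNA around histones H2A, H2B, H3 and H4, and linker histones of the H1 family bind where the DNA enters and leaves. Most histone genes are transcribed while DNA is copied, and replacement variants such as H3.3 and H2A.Z can be put in at other times. During spermatogenesis testis variants enter the chromatin of spermatogonia and spermatocytes. In elongating spermatids the histones are then acetylated and largely removed in favour of transition proteins and, at last, protamines. Hist1h2aa and Hist1h2ba encode the testis forms of H2A and H2B, Hist1h1t the linker histone H1t of meiotic cells, and H1fnt a linker histone of spermatids. H1f0 encodes the linker variant H1.0, H3f3a and H3f3b both encode H3.3, and H2afz encodes H2A.Z. BRDT is the testis member of the BET family, whose paired bromodomains bind acetylated histone tails.

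Levels are a gene's UMI over all UMI of that class and library, on the usual CPM scale. UMI count transcripts near their 3′ ends, so no scaling by gene length was made. Transcripts without a poly(A) tail are caught poorly by this chemistry, so a comparison between genes is one of captured transcripts. A level sums over the cells of a class, so fewer positive cells and less RNA per cell cannot be told apart by it. The 46495 cells fell into 17 deposited classes, 12 of germ cells and 5 of somatic cells. Libraries held 81042216 to 110018960 UMI, and classes 619 to 8790 germ cells and 318 to 1676 somatic cells. Of 45836 distinct barcodes, 650 (1.42%) occurred in more than 1 library. The labels do not say whether each library had its own animal. The p-values therefore speak only of the spread among these 6 libraries, and part of that spread may be technical.

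The class names were checked against fixed markers. Zbtb16, Gfra1, Nanos3 and Sall4 were highest in the class named Undifferentiated SG. Of the other markers of these cells, Id4 was highest in leptotene to early pachytene cells and Etv5 in Sertoli cells. The class named Differentiated SG had Stra8 and Rhox13 highest, but also Dmc1 and Prdm9, which mark early spermatocytes. Of the other differentiating spermatogonia markers, Kit was highest in Leydig cells, Sohlh1 in the class named Undifferentiated SG and Dmrtb1 in the class named step 1-2. Kit, Sohlh1 and Dmrtb1 had 174, 68.7 and 233 CPM in the class named Undifferentiated SG. In the class named Differentiated SG they were lower, at 113, 12.2 and 28.0 CPM. Stra8 and Rhox13 went the other way, with 216 and 66.1 CPM in the class named Undifferentiated SG against 960 and 132 CPM. In the class named Preleptotene SC 4 of the 6 measured early spermatocyte markers were highest. The classes named Differentiated SG and Preleptotene SC lie among spermatogonia in the deposited broad classes. Stra8 had 960 CPM in the first and 24.0 CPM in the second. In leptotene to early pachytene cells Dmc1, Rad51ap2, Prdm9 and Meiob had 8.23, 7.61, 2.29 and 50.4 CPM. In the class named Preleptotene SC they had 334, 313, 97.2 and 455 CPM. Hormad1 and Sycp1 were lower too, at 639 and 789 CPM against 1499 and 2827 CPM. The name Round ST(Step 1-2) goes against the data: its cells carry the broad name of spermatocytes and had 3 of the 6 measured late spermatocyte markers, Aurka, Ccna1 and Ldhc, highest. Of the other 3, Piwil1 and Hspa2 were highest in leptotene to early pachytene cells and Pgk2 in elongated spermatids. Of the round spermatid markers, Acrv1, Spaca1, Spaca7, Acr, Lyzl6 and Tex36 were highest at step 4-5 and Tssk2 at step 6-7. Of the elongated spermatid markers, Oaz3 and Odf1 were highest in elongated spermatids. Prm2 and Akap4 were highest at step 7-8, and Prm1 and Tnp2 at step 6-7. The classes named step 6-7 and step 7-8 carry the broad name Elongating, as do elongated spermatids. The Sertoli, Leydig, myoid and macrophage classes had all their measured markers highest, and the class named Unknown had Dcn, Pdgfra, Col1a1 and Col1a2 highest. The deposited names, those of undifferentiated spermatogonia, preleptotene and leptotene cells and spermatids included, are used below as labels and not as stages shown by these markers.

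Hist1h2aa and Hist1h2ba lie side by side at chr13:23934462-23934851 and chr13:23933773-23934156 (mm10, GENCODE M21) and are read away from each other, with 305 bases between their annotated starts. Hist1h1t lies at chr13:23695814-23696725 in the same histone cluster. These are genes of a single exon, as are H1fnt (chr15:98255986-98257293), H1f0 (chr15:79028450-79030504) and Hils1 (chr11:94967593-94968456). H3f3a (chr1:180800832-180813943) has up to 5 exons, H3f3b (chr11:116021912-116027962) up to 6, H2afz (chr3:137864487-137866922) up to 5 and Brdt (chr5:107331159-107387058) up to 19. The coding sequences of H3f3a and H3f3b have 408 bases each and are identical at 76.7% of them. Processed copies of H3f3a, H3f3b and H2afz exist in the genome, and the sources used here do not give how reads shared with such copies were counted, so their levels are uncertain to that extent.

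Promoters are shown for the divergent pair, whose levels followed each other over the classes, and for both H3.3 genes, which peaked in different classes. They are the 250 bases before the start in RefSeq (GRCm38.p6), 5′ to 3′ on the gene's strand, and all 10 members matched a RefSeq entry, some under newer symbols. Capitals mark matches on either strand to the half-site TGACG, to the CCAAT box, to the TATA-like letters TATAAA or to the octamer ATTTGCAT. The full cAMP response element TGACGTCA, whose first bases are TGACG, was searched too.
Hist1h2aa, chr13:23934187-23934436, plus strand: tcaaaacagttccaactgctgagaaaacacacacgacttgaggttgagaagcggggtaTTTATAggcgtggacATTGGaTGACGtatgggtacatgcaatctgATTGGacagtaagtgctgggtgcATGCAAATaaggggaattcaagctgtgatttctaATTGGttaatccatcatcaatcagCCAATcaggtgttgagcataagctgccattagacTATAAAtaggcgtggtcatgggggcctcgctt
H3f3b, chr11:116024505-116024754, minus strand: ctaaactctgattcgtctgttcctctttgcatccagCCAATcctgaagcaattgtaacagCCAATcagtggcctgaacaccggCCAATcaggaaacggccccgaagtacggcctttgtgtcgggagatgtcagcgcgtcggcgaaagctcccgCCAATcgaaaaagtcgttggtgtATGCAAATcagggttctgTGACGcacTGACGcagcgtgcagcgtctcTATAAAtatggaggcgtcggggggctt
H3f3a, chr1:180813606-180813855, minus strand: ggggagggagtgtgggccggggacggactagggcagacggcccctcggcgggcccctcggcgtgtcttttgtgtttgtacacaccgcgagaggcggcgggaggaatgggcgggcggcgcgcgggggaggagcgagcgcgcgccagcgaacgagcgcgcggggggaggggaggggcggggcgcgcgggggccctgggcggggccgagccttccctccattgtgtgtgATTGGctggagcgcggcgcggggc

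The Hist1h2aa window, shown for the pair, lies within the 305 bases between their annotated starts. The Hist1h2ba window, chr13:23934157-23934406 on the minus strand, overlaps most of it. The Hist1h2aa window held 4 matches to CCAAT, 2 to TATAAA, 1 to TGACG and 1 octamer. The Hist1h2ba window held 4, 1, 1 and 1, and the H3f3b window 4, 1, 2 and 1. The H3f3a window held 1 match to CCAAT and none to the other letters. Of 32851 RefSeq promoter windows of this length, 33.8% held CCAAT, 17.8% TGACG, 12.4% TATAAA, 1.6% the octamer and 1.55% TGACGTCA, and 0.840% held CCAAT 4 or more times. The H3f3a window was 77.2% G and C, the H3f3b window 54.0% and the Hist1h2aa window 44.8%, against a median of 52.4% over all windows. The Hist1h1t and Brdt windows each held 1 match to CCAAT, and no member window held TGACGTCA. A match is a description of letters, not of a bound site.

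The testis H2A and H2B genes were highest in the class named Differentiated SG. Hist1h2aa reached 2658 CPM in the lowest library, 3130.5 in the median and 5375 in the highest there, with a mean of 3637 ± 1071 CPM (SD, n = 6, as for all means over libraries below). No library of another class reached this range: in undifferentiated spermatogonia the libraries held 185 to 520.3 CPM and in preleptotene spermatocytes 534 to 969 CPM. Hist1h2ba had 1764 CPM in the lowest library, 1960.1 in the median and 2553 in the highest in the same class. It then held on longer than its partner, with 1202 ± 219 CPM in preleptotene and 888 ± 221 CPM in leptotene to early pachytene cells, where Hist1h2aa had 737 ± 172 CPM and 424 ± 111 CPM. Both had dropped to 41.7 CPM (Hist1h2aa) and 84 CPM (Hist1h2ba) by late pachytene to early diplotene, a step down of 10.2-fold and 10.6-fold that all 6 libraries showed.

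The balance of the pair turned between these classes. Per captured UMI, Hist1h2aa stood at 1.83 ± 0.48 times Hist1h2ba in undifferentiated spermatogonia and 1.71 ± 0.25 times in the class named Differentiated SG. In preleptotene spermatocytes the ratio was 0.62 ± 0.14, and in leptotene to early pachytene cells 0.48 ± 0.05. The libraries of the first 2 classes ran from 1.43 to 2.58 and those of the next 2 from 0.40 to 0.87, so they did not overlap. From the class named step 1-2 on, both genes were at 4.02 and 6.72 CPM or lower in every germ cell class but step 5-6 (class means), where Hist1h2aa had 5.38 to 11.4 CPM.

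Hist1h1t, the linker histone of meiotic prophase, came on later and higher. It had 4720.0 CPM in the lowest library, 4964 in the median and 5182 in the highest in leptotene to early pachytene cells. Late pachytene to early diplotene cells held 1864 to 2183 CPM, preleptotene spermatocytes 316 to 693 CPM and the class named Differentiated SG 437 to 915 CPM, the last 2 overlapping. From late pachytene to the class named step 1-2 the mean went from 2053 to 126 CPM, 16.3-fold lower, and at step 3 it was 22.2 CPM. The steepest part of this fall lay between cells that the broad classes both call spermatocytes. Undifferentiated spermatogonia, at 66.5 to 159.6 CPM, lay below all Sertoli libraries, which had 174 to 378 CPM.

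H1fnt, the linker histone of spermatids, was a gene of the other end of the series. Its level was 5.95 to 11.4 CPM at step 3 and 493 to 543 CPM at step 4-5, 62.5-fold higher. It went on to 2243 CPM at step 5-6 and 4329 CPM in the lowest library, 4497 in the median and 4958 in the highest at step 6-7. At step 7-8 it stood at 1713 to 2070.4 CPM and in elongated spermatids at 125 to 179.8 CPM, and none of the neighbouring ranges from step 3 to elongated spermatids overlapped. No class had both linker histones high: the mean ratio of H1fnt to Hist1h1t was 0.38 at step 3, 28.4 at step 4-5 and 492 at step 6-7.

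**Figure D1:**
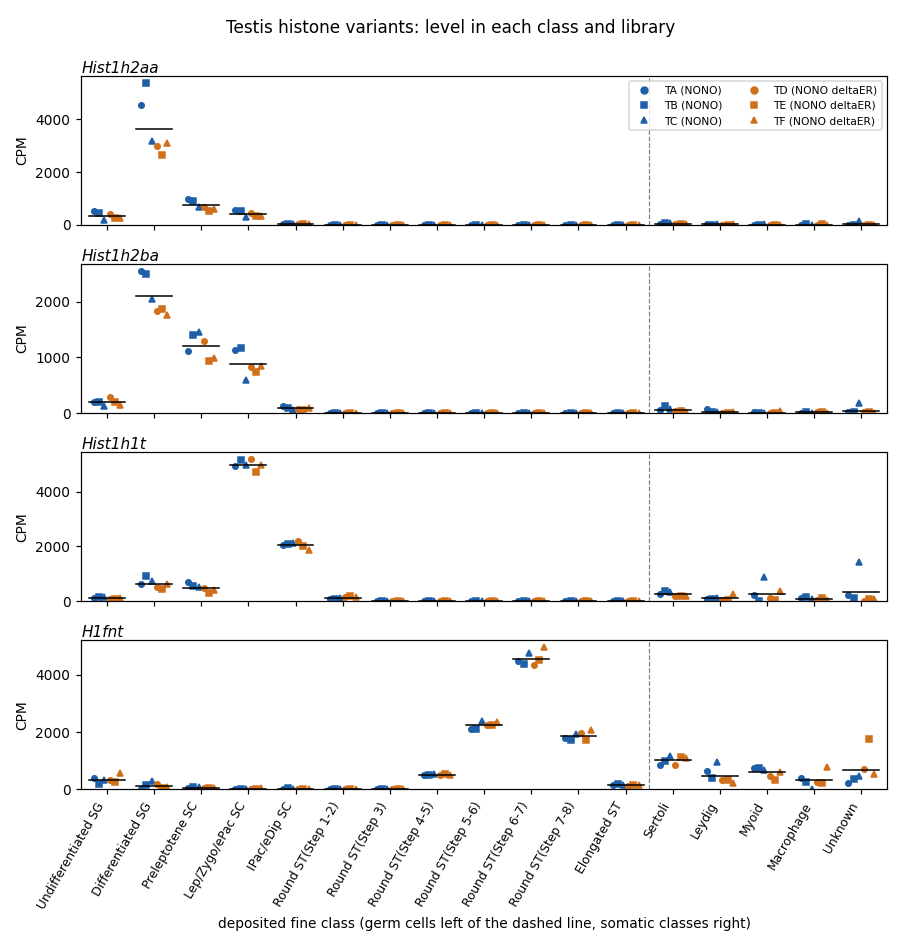
CPM of the 4 measured testis variants (linear axes, 1 panel per gene) in each of the 17 deposited classes; each point is a library, coloured by genotype, and the black bar is the mean of the 6 libraries. Hist1h2aa and Hist1h2ba peak in the class named Differentiated SG at means of 3637 and 2096 CPM, Hist1h1t in leptotene to early pachytene cells at 4987 CPM and H1fnt at step 6-7 at 4569.6 CPM.

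Of the replacement histones, H1f0, the linker variant of many cells at rest, was highest in the classes named Differentiated SG and Preleptotene SC. It had 183 CPM in the lowest library, 209 in the median and 263 in the highest in the class named Differentiated SG, 93.9 to 235 CPM in preleptotene cells and 19.1 to 26.4 CPM in leptotene to early pachytene cells. From late pachytene on its mean was at most 3.31 CPM. At step 7-8 no UMI was counted among 15186519, which allows up to 0.198 CPM (3 counts over the 6 libraries, counting error only). Undifferentiated spermatogonia had 59.8 to 109 CPM, a range that overlapped those of somatic classes. It was present in somatic classes, with 59.5 to 123 CPM in Leydig cells and 96.9 to 139 CPM in the class named Unknown.

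The 2 genes for H3.3, H3f3a and H3f3b, followed different courses although their product is the same protein. H3f3b was high from the class named Differentiated SG (954 to 1207 CPM) to leptotene to early pachytene cells (1074 to 1397 CPM) and then went down to 195 to 291 CPM and, in the class named step 1-2, 82 to 107 CPM. A lower crest followed at step 4-5, with 285 to 417 CPM. Outside the germ line macrophages had 922 to 1922 CPM of H3f3b. H3f3a had its low point among the classes up to step 5-6, 202 to 296 CPM, in the class named Differentiated SG. It was highest at step 4-5, with 826 CPM in the lowest library, 998 in the median and 1077 in the highest. The ratio of H3f3b to H3f3a was thus 4.42 ± 0.30 in the class named Differentiated SG, 1.98 ± 0.28 in leptotene to early pachytene cells and 0.15 ± 0.03 in the class named step 1-2.

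Both H3.3 genes ended together. From step 5-6 to step 6-7 the mean of H3f3a went from 682 to 62.4 CPM and that of H3f3b from 319 to 9.96 CPM, 10.9-fold and 32-fold lower, in all 6 libraries. In this step H1fnt stood higher, by 2.04-fold. Single libraries stood at the ends of these ranges: TD had the lowest H3f3a in 10 of the 12 germ cell classes, and TF the lowest H3f3b in 7. Over all cells TD had 489.6 CPM of H3f3a and the other 5 libraries 616 to 692 CPM.

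H2afz, which encodes H2A.Z, climbed and declined more evenly. It had 166 to 242 CPM in undifferentiated spermatogonia, 422 to 544 CPM in preleptotene cells and 915 CPM in the lowest library, 1009 in the median and 1081 in the highest in leptotene to early pachytene cells. Its means were then 812, 599, 464 and 205 CPM in the classes up to step 4-5. The largest step between neighbouring classes was the 8.5-fold lower level at step 5-6, 22.6 to 26.9 CPM, 1 class before that of the H3.3 genes.

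Brdt was highest in the class named Preleptotene SC. It had 719 CPM in the lowest library, 795 in the median and 924 in the highest in preleptotene cells and 723 to 749 CPM in leptotene to early pachytene cells, and these ranges overlapped. In the class named Differentiated SG the libraries held 158 to 265 CPM, so the level was 4.23-fold higher in preleptotene cells. The lower of these levels overlapped those of Sertoli (69.2 to 194 CPM), Leydig (44.3 to 264 CPM) and myoid cells (54.0 to 348 CPM). After preleptotene and leptotene to early pachytene cells, Brdt held 526 to 565 CPM in late pachytene to early diplotene cells and 484 to 535 CPM in the class named step 1-2. It held 464 to 502 CPM at step 3 and 419 to 466 CPM at step 4-5. At step 5-6 its mean was 220.1 CPM and at step 6-7 44.3 CPM, a class in which H1fnt was at its highest. Libraries differed little in Brdt in leptotene to early pachytene cells, with an SD of 8.71 CPM on 737.

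**Figure D2:**
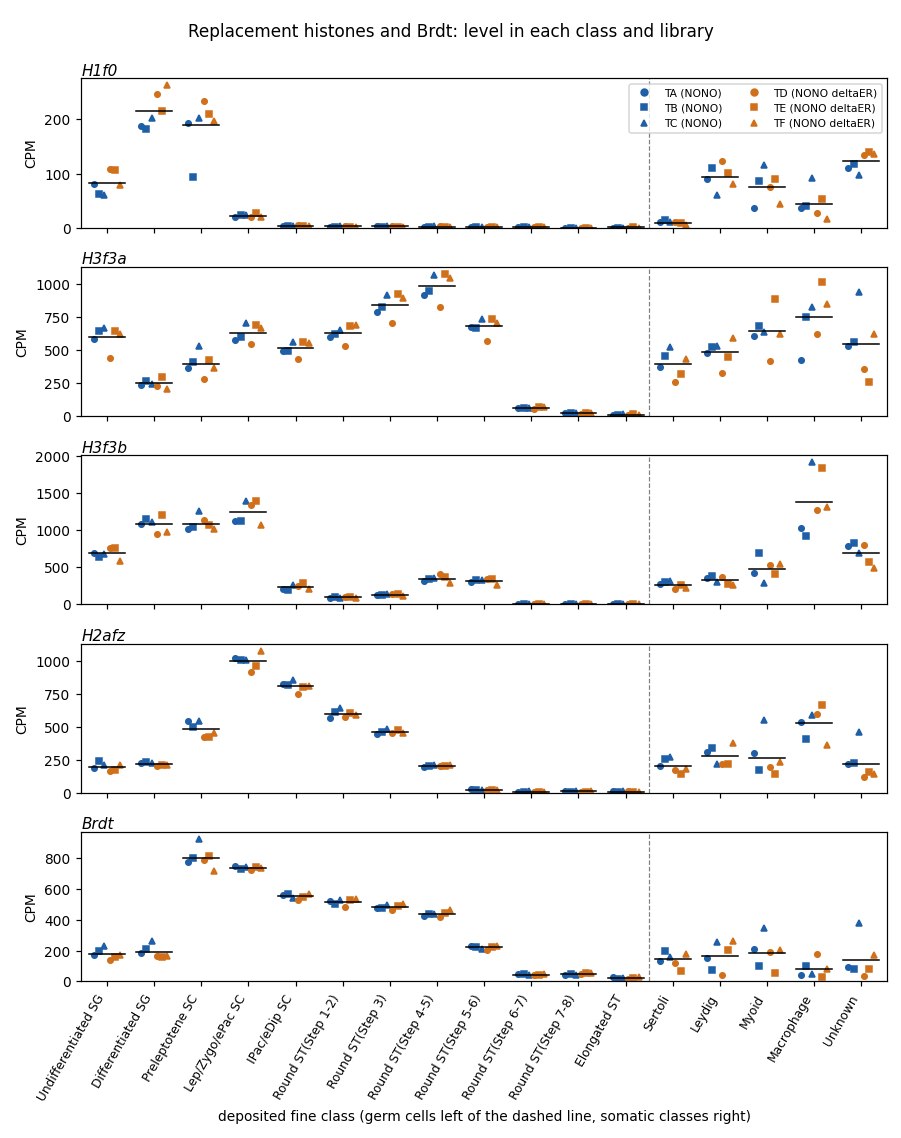
CPM of the 4 replacement histones and Brdt (linear axes, 1 panel per gene) in the 17 deposited classes; points are libraries coloured by genotype and black bars the mean of the 6. H3f3b is high up to leptotene to early pachytene cells (1243 CPM), H3f3a at step 4-5 (981 CPM), and both are at 62.4 CPM (H3f3a) and 9.96 CPM (H3f3b) at step 6-7.

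Set against each other, the testis variants and the replacement histones changed places several times. The share of the 4 measured testis variants in the UMI of the 8 measured histone members was 38.7% in undifferentiated spermatogonia, 78.1% in the class named Differentiated SG and 53.3% in preleptotene cells (means of 6 libraries). It was 68.5% in leptotene to early pachytene and 58.4% in late pachytene to early diplotene cells. In the class named step 1-2 it was 9.78% and at step 3 2.47%, where libraries ran from 1.83 to 2.81%. It came back to 25.8% at step 4-5 and 68.8% at step 5-6, and at step 6-7 it was 98.2% in a range of 98.2 to 98.3%. The return was carried by H1fnt and the earlier crests by Hist1h2aa, Hist1h2ba and Hist1h1t, so the low at step 3 lies between separate genes. Part of this share is read as background in early classes: in undifferentiated spermatogonia H1fnt gave 342 and Hist1h1t 112 of the 1001 CPM of testis variants, and Sertoli cells, which should lack these genes, had a share of 61.1%. At step 3 the testis variants summed to 36.2 CPM and the replacement histones to 1439 CPM. At step 6-7 the sums were 4583 and 82.7 CPM.

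**Figure D3:**
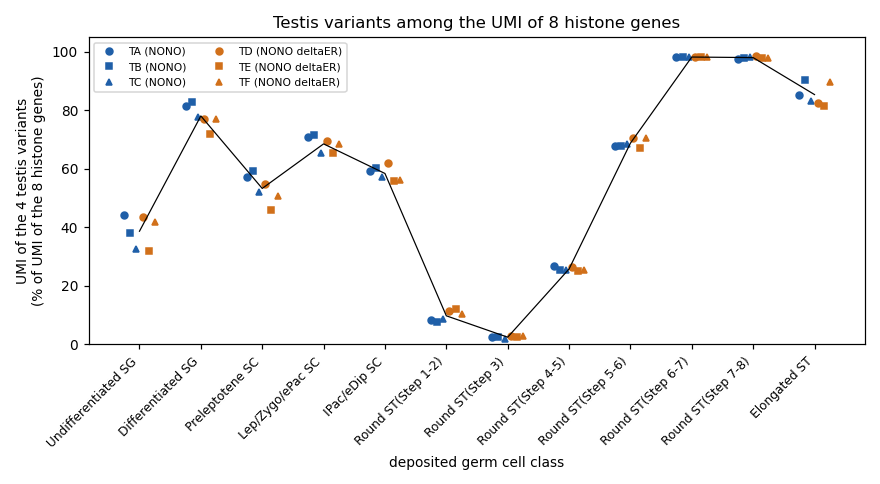
Share of the 4 measured testis variants in the UMI of the 8 measured histone members (percent, linear axis) in the 12 germ cell classes; points are libraries coloured by genotype and the line joins the means of 6 libraries. The share has crests of 78.1% and 98.2% with a low of 2.47% at step 3 between them.

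Counts in cells that should lack these genes set a background. H1fnt had 836 to 1154 CPM in Sertoli cells, a mean of 0.905 times its level over all cells of the library, and 342 to 744 CPM in myoid cells. These levels lie above those of late pachytene cells and of the classes up to step 3, so H1fnt in the somatic classes, and its 189 to 575 CPM in undifferentiated spermatogonia, are read as background and not as expression. Hist1h1t in Sertoli cells was 0.46 times its level over all cells, and Brdt 0.375 times. The spermatid genes Prm2 and Tnp2 were among the markers of elongated spermatids, whose 6 measured genes summed to 27489 to 41174 CPM in Sertoli cells. Library TC stood apart in the class named Unknown, with 1442 CPM of Hist1h1t where the other 5 libraries had 16.8 to 234 CPM.

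Shares of cells with a UMI are given after each cell was thinned to 1000 UMI, which left out shallower cells (460 of 1296 in preleptotene cells, for instance). Hist1h1t had a UMI in 96.5% of thinned leptotene to early pachytene cells (99.8% unthinned), 31.4% of preleptotene cells (38.1%) and 2.38% of step 3 spermatids (23.6%). In Sertoli cells the share was 16.4% (27.9%), above that of step 3 spermatids. Median depths were 1836 UMI per cell in Sertoli cells and 12854 at step 3, so the Sertoli share is no exact background for them. Hist1h2aa had a UMI in 73.3% of thinned cells of the class named Differentiated SG (85.9% unthinned) and in 3.56% of Sertoli cells (7%). H1fnt had one in 97.9% of step 6-7 spermatids (99.8%), 33.4% of step 4-5 spermatids (77.8%) and 30.9% of Sertoli cells (35%). At step 3 it was 0.931% (7.82%). Median depths were 13122 UMI per cell in leptotene to early pachytene cells, 1253 in preleptotene, 15103 at step 4-5, 7372.5 at step 6-7 and 1836 in Sertoli cells.

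Genes whose pattern was most like each member were ranked by Pearson's r of mean log2(CPM + 10) over the 17 classes, among 9926 genes, as a description over classes that share libraries. Hist1h2aa and Hist1h2ba were second on each other's list (r = 0.981), after Zdhhc13 (0.982) for Hist1h2aa and Tex101 (0.984) for Hist1h2ba. The third were Pdik1l (0.969) and Zdhhc13 (0.971). Hist1h1t was most like Zup1 (0.966), Ufl1 (0.946) and Mllt10 (0.939). H1fnt was most like Txndc2 (0.989), Tex35 (0.987) and Sh3rf2 (0.987). H3f3a paired best with Rbbp6 (0.971), Ddx5 (0.965) and Sf1 (0.964), and genes much like H3f3b were Golga2 (0.955) and Arid1a (0.954). H2afz paired best with Atp6v1d (0.969), Tox4 (0.964) and Sf3b2 (0.962), H1f0 with Rock2 (0.972), Pkd1 (0.962) and P4hb (0.959), and Brdt with Cox7b2 (0.964), Tomm70a (0.960) and Sugp2 (0.957). H3f3a and H3f3b correlated with r = 0.785 with each other, below all of these, and H1fnt ran against H2afz (r = -0.71) and Brdt (-0.66).

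NONO deltaER was compared with NONO in each class with edgeR's quasi-likelihood test on UMI summed per library and class. Of 153 pairs of a member and a class, 132 were tested and 21 fell under the filter on low counts. Fold changes are log2 of NONO deltaER over NONO, followed by their standard error, and adjusted p-values are edgeR's, with Benjamini-Hochberg adjustment over all genes of the class. In preleptotene spermatocytes 2 members were lower in NONO deltaER, Hist1h1t and Hist1h2aa, against a background of 0.327% of 5818 genes called there (0.155% lower), and of 0.0154% over all 17 classes (0.00769% lower). No member passed the threshold of 0.05 as higher in any class, and none passed in the other 16 classes. The background of calls was 0.0271% in undifferentiated spermatogonia and 0% in the other 15 classes. At an unadjusted p under 0.05 there were 24 pairs (18.2%), against 4.78% of all 143072 tests. These pairs included 4 in Sertoli cells, 1 in Leydig cells and, in the class named Unknown, 2 lower and 1 higher. The share of all genes differed between classes, with 16.2% in undifferentiated spermatogonia and 11.7% in preleptotene cells. DESeq2 called 1 pair, Hist1h1t in undifferentiated spermatogonia.

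Hist1h1t had 693, 569.7 and 521 CPM in the preleptotene cells of TA, TB and TC and 473, 316 and 411 CPM in those of TD, TE and TF. All 3 NONO libraries lay above all 3 of NONO deltaER, with means of 595 ± 88.7 CPM and 400.1 ± 78.8 CPM (SD, n = 3 for each genotype). Its log2 fold change was -0.61 ± 0.14 (adjusted p = 0.0351). These 316 to 693 CPM overlapped the 174 to 378 CPM of Sertoli cells, which should lack the gene. In Sertoli cells Hist1h1t was lower in NONO deltaER too (-0.82 ± 0.21, edgeR's adjusted p = 0.96). The part of background in the preleptotene difference was not tested. Hist1h2aa had 969, 922 and 694 CPM in preleptotene cells of NONO against 686, 534 and 618 CPM in those of NONO deltaER. Here too the groups did not overlap, but TC lay only just above TD. The fold change was -0.54 ± 0.13 (adjusted p = 0.047). Non-overlapping and lower in NONO deltaER were 6.41% of all genes tested in these cells, and 3 of the 9 members: these 2 and H2afz. No member was higher without overlap, where 10.3% of all genes were. An unadjusted p under 0.05 with a lower level was found for 5 of 9 members and 5.78% of all genes.

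The other 7 members did not pass in preleptotene cells. Hist1h2ba, the partner of Hist1h2aa, had 1117, 1408 and 1458 CPM in NONO against 1298, 930.0 and 997 CPM in NONO deltaER, and the groups overlapped (log2 fold change -0.32 ± 0.12, adjusted p = 0.257). Without TA it passed (edgeR's adjusted p = 0.0413). H2afz had 543, 502 and 544 CPM against 426, 422 and 459 CPM (-0.31 ± 0.12, adjusted p = 0.257). For H3f3a the values were 364, 408 and 530.3 CPM against 281, 425 and 361 CPM (-0.30 ± 0.14, adjusted p = 0.382), and TD was again the lowest. The H3f3b libraries overlapped widely (-0.06 ± 0.11, adjusted p = 0.869), as did those of Brdt (-0.13 ± 0.11, adjusted p = 0.695) and of H1fnt, which is background here (-0.52 ± 0.33, adjusted p = 0.559). H1f0 was the only member with a fold change above 0, so 8 of 9 lay below 0 where 50.2% of all genes did (0.35 ± 0.19, adjusted p = 0.488). Leaving out 1 library moved several of these values by over 1.5 times. H1f0 had 0.08 without TB and 0.57 without TA, H3f3a -0.17 without TC and -0.17 without TD, and H1fnt from -0.98 without TA to -0.19 without TB. Brdt had -0.07 without TC and -0.07 without TF, and Hist1h2ba -0.50 without TD. The median over the 9 members was -0.31, and over all genes tested -0.00206.

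**Figure D4:**
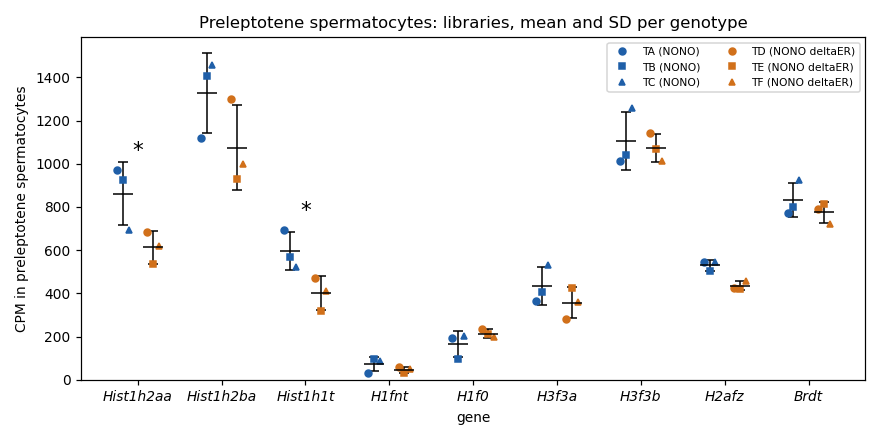
CPM of the 9 measured members in preleptotene spermatocytes (linear axis); points are libraries, the bars are the mean and SD of 3 libraries per genotype, and an asterisk marks an adjusted p under 0.05. Hist1h2aa and Hist1h1t carry the asterisk, with NONO means of 862 and 595 CPM and NONO deltaER means of 613 and 400.1 CPM.

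Both calls were near the threshold. Neither held with DESeq2 (adjusted p = 0.999 for Hist1h1t and 0.999 for Hist1h2aa) or with cells of at least 1000 UMI (edgeR's adjusted p = 0.111 and 0.247), or without TE (0.347 and 0.347) or TF (0.218 and 0.266). Without TA the values were 0.0517 for Hist1h1t and 0.06 for Hist1h2aa, and without TB 0.108 for Hist1h2aa. The libraries part into 3 with a higher median mitochondrial percent (TA, TB and TF) and 3 with a lower one (TC, TD and TE). With this set as a covariate edgeR's adjusted p was 0.143 and 0.144. Within the first set Hist1h1t had 693 and 569.7 against 411 CPM, and within the second 521 against 473 and 316 CPM. Hist1h2aa had 969 and 922 against 618 CPM, and 694 against 686 and 534 CPM.

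Markers of other cells moved beside these genes. The 6 measured late spermatocyte markers, all detected, summed to 1230.0 to 1351 CPM in NONO against 939.6 to 1016 CPM in NONO deltaER, without overlap, in preleptotene cells. The 6 early spermatocyte markers summed to 5227 to 6027 CPM in NONO against 5231 to 5992 CPM in NONO deltaER, and the 7 round spermatid markers to 97.2 to 150.2 CPM in NONO against 84.9 to 107 CPM in NONO deltaER. Of the undifferentiated spermatogonia markers, Sall4 was at 0, and the 6 summed to 17.7 to 29.1 CPM in NONO against 6.39 to 10.9 CPM in NONO deltaER, also without overlap. Their part in the lower Hist1h1t and Hist1h2aa was not tested. After thinning, Hist1h1t had a UMI in 36 ± 5.59% of preleptotene cells in NONO against 26.8 ± 3.1% in NONO deltaER (SD over 3 libraries, unthinned 41.6% and 34.6%). For Hist1h2aa the shares were 49.7 ± 5.46% and 41.5 ± 3.52% (unthinned 59.1% and 50%). In Sertoli cells, with a median of 1836 UMI per cell against 1253, the thinned shares were 16.4% and 3.56%. The share of testis variants among histone UMI was 56.2 ± 3.72% in NONO against 50.4 ± 4.32% in NONO deltaER, with overlap.

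In the class named Differentiated SG, where the H2A and H2B variants peak, no member passed, and no gene of 4455 did (0%). Hist1h2aa had 4542, 5375 and 3175 CPM in NONO against 2988, 2658 and 3086 CPM in NONO deltaER, without overlap, but TB was 5375 and TC only 3175 CPM within 1 genotype. Its fold change was -0.63 ± 0.18 (adjusted p = 0.474). Hist1h2ba had 2553, 2507 and 2058 CPM against 1829.5, 1862 and 1764 CPM, again without overlap (-0.42 ± 0.12, adjusted p = 0.404). Brdt had 183, 207 and 265 CPM against 163, 158 and 162 CPM (-0.47 ± 0.19, adjusted p = 0.603), and Hist1h1t 614, 915 and 728 CPM against 523, 437 and 638 CPM with overlap (-0.55 ± 0.17, adjusted p = 0.474). These 4 had an unadjusted p under 0.05, as did 6.33% of all genes. Groups were lower without overlap in 4 of 9 members (background 4.51%) and higher in 1, H1f0 (background 8.06%). Hist1h2aa passed without a filter on low counts (edgeR's adjusted p = 0.0147). Without TC, Hist1h2aa and Hist1h2ba passed (edgeR's adjusted p = 3.21e-05 and 0.00558). The class held 64 to 141 cells per library, and its Brdt levels overlapped those of Sertoli, Leydig and myoid cells. The share of testis variants was 80.8 ± 2.73% in NONO against 75.4 ± 2.9% in NONO deltaER (SD over 3 libraries), without overlap.

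In undifferentiated spermatogonia Hist1h1t had 123, 139.9 and 159.6 CPM in NONO against 79.5, 66.5 and 101 CPM in NONO deltaER, without overlap (-0.82 ± 0.18, adjusted p = 0.0852). It passed with DESeq2 (adjusted p = 0.0293) and, with edgeR, without a filter on low counts (1.48e-04), without the top 5% of cells by UMI (0.0425), and without TA or TF (0.0129 and 0.0125). These levels are below those of Sertoli cells. In the same cells the undifferentiated spermatogonia markers, all 6 detected, summed to 333 to 378 CPM in NONO against 431 to 615 CPM in NONO deltaER, and the late spermatocyte markers to 1171 to 1747 CPM in NONO against 735 to 1259 CPM in NONO deltaER. Their part was not tested. Brdt (-0.40 ± 0.15, adjusted p = 0.199) and H1f0 (0.45 ± 0.18, adjusted p = 0.238) did not pass either. Brdt had 139 to 231 CPM in these cells, a range that overlapped those of Sertoli, Leydig and myoid cells. Of the 9 members, 1 was lower without overlap, where 7.4% of all genes were.

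At its peak in leptotene to early pachytene cells Hist1h1t did not differ beyond the spread between libraries, with 4941, 5149.6 and 4957 CPM in NONO against 5182, 4720.0 and 4969.9 CPM in NONO deltaER (-0.02 ± 0.06, adjusted p = 0.998). In the class named step 1-2 it had 96.5, 89.3 and 118 CPM in NONO against 136, 179 and 136 CPM in NONO deltaER (0.57 ± 0.14), and at step 3 19.3, 22.1 and 16.8 against 25.4, 25.8 and 23.6 CPM (0.36 ± 0.11). In both the NONO deltaER libraries lay above all NONO libraries. Among step 1-2 cells the same held for 2 of 9 members, the other being Hist1h2ba, and for 3.73% of all genes. At step 5-6 the order was the opposite, with 7.5, 9.57 and 7.9 against 6.76, 4.94 and 4.75 CPM (-0.57 ± 0.19). Unadjusted p was 0.00217, 0.0094 and 0.00984 in these 3 classes, with adjusted p of 1.00 or nearly so in each. At step 3 and step 5-6 every Hist1h1t library lay below the 174 to 378 CPM of Sertoli cells, which should lack the gene. In the class named step 1-2 only TE, at 179 CPM, reached this range, and the other libraries lay below it. The share of testis variants in the class named step 1-2 was 8.24 ± 0.496% in NONO against 11.3 ± 0.97% in NONO deltaER, without overlap. Without the top 5% of cells by UMI the shares were 7.29 ± 0.79% and 8.83 ± 0.671%, so the difference of 3.08 percentage points became 1.54. Late spermatocyte markers there summed to 5929 to 6395 CPM in NONO against 5894 to 6399 CPM in NONO deltaER.

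Members at their spermatid peaks did not pass. H1fnt at its peak had 4475, 4361 and 4777 CPM in NONO against 4329, 4518 and 4958 CPM in NONO deltaER at step 6-7 (0.01 ± 0.07, adjusted p = 1.00). H3f3a at step 4-5 had 918, 949.8 and 1069.9 against 826, 1077 and 1046 CPM (0.00 ± 0.11), with TD lowest and TE highest of all 6. Brdt at step 3 had 474, 478 and 492 against 464, 487 and 502 CPM (0.01 ± 0.06). In Sertoli cells Hist1h2ba was 54.7, 119 and 82 against 41.4, 28.9 and 25 CPM and Hist1h1t 275, 378 and 345 against 191, 174 and 196 CPM, lower in NONO deltaER without overlap (-1.34 ± 0.29 and -0.82 ± 0.21, adjusted p = 0.901 and 0.96). Sertoli cells should lack both genes. Hist1h2ba passed there without a filter on low counts (edgeR's adjusted p = 0.0345). Among cells of the class Unknown the fold change of Hist1h1t was -3.05 ± 0.83 (adjusted p = 0.999), and -1.34 without TC. It passed there without a filter, without TA and without TB (edgeR's adjusted p = 0.0116, 0.00625 and 1.69e-04). Over all 17 classes, 19 tested pairs were lower without overlap and 6 higher (background 4.33% and 5.46%). Of the lower pairs, 4 were in Sertoli cells, 1 in Leydig cells, 1 in myoid cells and 2 in the class named Unknown. That last class also held 2 of the higher pairs.

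**Figure D5:**
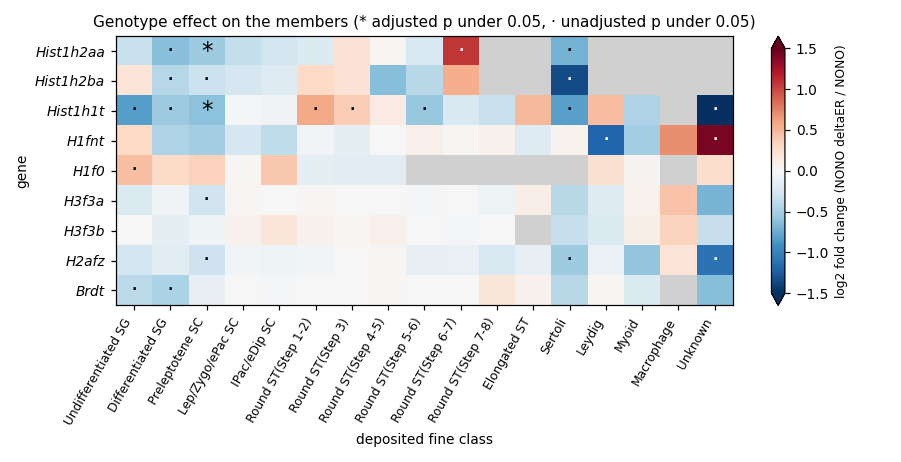
Log2 fold change (NONO deltaER over NONO, colour scale limited to 1.5 in either direction) of the 9 measured members in the 17 deposited classes; grey cells were not tested, a dot marks an unadjusted p under 0.05 and an asterisk an adjusted p under 0.05. The 2 asterisks are Hist1h2aa and Hist1h1t in preleptotene spermatocytes, and Hist1h1t carries dots on either side of 0 in later classes.

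Whether the genotype effect itself differed between neighbouring germ cell classes was tested with limma on the difference of log2 CPM of each library. None of 90 member tests over 11 pairs of classes passed (lowest adjusted p = 0.535), nor did any gene of 92760 tests (0%), and 7 member tests had an unadjusted p under 0.05 (7 of 90, where 5.22% of all did). From preleptotene to leptotene to early pachytene cells the effect on Hist1h1t moved by 0.57 ± 0.21 (log2, adjusted p = 0.535), and from step 4-5 to step 5-6 by -0.72 ± 0.16 (adjusted p = 0.777). So the lower Hist1h1t of preleptotene cells was not shown to differ from the effect in the next class. Over all cells of a library edgeR called none of the 9 members, and 0 had an unadjusted p under 0.05, where 6% of all genes did. No gene of 20958 was called there (0%), and DESeq2 called no member either. The fold changes over all cells ran from -0.25 for Hist1h2ba to 0.27 for H1f0.

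Other genes of histone exchange were taken from 6 lists with 79 measured genes, chosen with earlier results of these data known. In all 17 classes 843 tests were made and 1 passed: Anp32b, an acidic histone-binding chaperone, was lower in preleptotene cells of NONO deltaER. It had 344, 353 and 384 CPM in NONO and 273, 246 and 228 CPM in NONO deltaER (log2 fold change -0.56, adjusted p = 0.047). No gene of these cells passed with DESeq2, with cells of at least 1000 UMI or without TE, Anp32b included. The other 14 chaperones tested in these cells did not pass. Unadjusted p was under 0.05 in 49 of the 843 tests (5.81%), near the 4.78% of all tests. Medians in preleptotene cells were -0.40 for 4 other variants, -0.04 for 6 replication-dependent histones, -0.15 for 15 chaperones, -0.01 for 22 acetylation and eviction factors and -0.26 for 2 transition proteins and protamines. Of the BET paralogs, Brd2 had -0.07 (adjusted p = 0.898) and Brd3 0.37 (adjusted p = 0.646). In the class named Differentiated SG the 8 replication-dependent histones tested all lay below 0 (median -0.34), 3 of them with edgeR's unadjusted p under 0.05. There Hist1h1a had -0.61 (edgeR's adjusted p = 0.404), Hist1h1c -0.62 and H2afx -0.55 (0.235 for both). Medians there were -0.09 for 17 chaperones and -0.13 for 17 acetylation and eviction factors. So lower levels in this class were not particular to the testis variants.

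By level, Brd2 and Brd3, paralogs of Brdt, were highest in the class named step 1-2 (957 ± 40.9 CPM and 442 ± 44.2 CPM). H2afx, whose product is phosphorylated at DNA breaks, had 1538 ± 323 CPM in the class named Differentiated SG, beside the peak of Hist1h2aa. The same class had the replication-dependent linker histones Hist1h1a (2999 ± 799 CPM), Hist1h1c (591 ± 159 CPM) and Hist1h1e (579 ± 133 CPM) at their highest. H2afy, for macroH2A1, was highest in leptotene to early pachytene cells (167 ± 11.4 CPM). H2al2a, a spermatid H2A variant, came last with 612 ± 126 CPM at step 7-8. Of the proteins that replace histones, Tnp2 (30736 ± 3428 CPM) and Prm1 (2186 ± 566 CPM) were highest at step 6-7, the class of the H1fnt peak, and Prm2 at step 7-8 (111396 ± 6604 CPM). The chaperone Nasp was highest in the class named step 1-2 (4686 ± 214 CPM), Nap1l4 in late pachytene to early diplotene cells (496 ± 56.9 CPM) and Npm1 in the class named Differentiated SG (704 ± 58 CPM). Of the acetylation and eviction factors, Morf4l1, a chromodomain subunit of acetyltransferase complexes, was highest at step 3 (2503 ± 126 CPM). Ep400, the ATPase of such a complex, and Psme4, the proteasome activator that degrades acetylated histones, were highest in late pachytene to early diplotene cells (1403 ± 42.8 CPM and 347 ± 67 CPM).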

How the data were processed

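Testis cells of 6 libraries, 3 per genotype, were measured by single-cell RNA sequencing. The authors deposited a matrix of UMI counts per gene and cell, made with Cell Ranger 2.1.1 and mm10 per the submitters' processing notes. The cell table deposited beside it gives the library, group, broad and fine class of each cell and the percent of UMI from mitochondrial genes. The deposited cells held at least 500 UMI and at most 5.00% mitochondrial UMI. The sources used here do not give how cells were filtered or classes made. No doublet caller was run, and the 5% of cells with the most UMI per library and class were left out as an alternative.

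Counts were summed per library and class, with at least 20 cells each. Each class was fitted with edgeR 4.0.16 in R 4.3.3 (filterByExpr, TMM factors, robust quasi-likelihood test, Benjamini-Hochberg adjustment over all its genes, threshold 0.05). Differences of the effect between neighbouring classes were tested with limma 3.58.1. Alternatives were DESeq2 1.42.0, RLE factors, no filter, cells of at least 1000 UMI, the library set by mitochondrial percent as a covariate, and leaving out each library. The edgeR fit was tested on simulated data. Levels, shares and thinned cells were computed in Python 3.11.15. Class differences are given with no test, since the same cells made the classes. Positions come from GENCODE M21 and promoters from RefSeq GRCm38.p6. All members are named, as are, of each other list, the 3 genes with the highest mean over germ cell classes and every gene that passed. Some items that these rules name are not reported here. The 3 genes most like each member were taken among those with a mean of at least 50 CPM in a class. Members and lists were chosen with earlier results of these data known.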

Additional observations from a re-analysis of the deposited data

How the results depend on the processing

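Of the member and class pairs, 2 passed with edgeR. The count was 1 with DESeq2, 6 without a filter on low counts, 0 with cells of at least 1000 UMI and 0 with the library set as a covariate. Leaving out single libraries gave 0 to 5, with 0 without TE, 1 without TF and 5 without TC. Over all genes of preleptotene cells the count of 19 became 0 with DESeq2, 0 with cells of at least 1000 UMI and 6 with the covariate, and 0 to 108 when a library was left out (0 without TE, 5 without TC, 9 without TD, 12 without TF and 108 without TA). The cause of these changes was not tested. In preleptotene cells the log2 fold changes of Hist1h1t (-0.77 to -0.47) and Hist1h2aa (-0.68 to -0.44) stayed below 0 without each library. The sign turned in 2 cases that never passed: H3f3b in preleptotene cells without TC (0.013, range over left-out libraries -0.13 to 0.01) and H1fnt there without the top 5% of cells by UMI (0.0187). Of the other alternatives of 28 named fold changes, 305 kept direction and side of the threshold, 13 passed newly and 13 no longer did. The difference in the testis share of preleptotene cells, -5.78 percentage points, was -7.9 to -3.58 without single libraries. Member counts over all cells and for the difference of effects were 0 under every alternative run. Preleptotene libraries held 226306 to 452846 UMI, which limits genes of low level. No paired analysis was possible because the cell table does not tie the libraries to the numbered samples.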
